A study of Mus musculus with 8 samples.

Results

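The genes described here are 33 genes of the acute phase response of the liver and of the cytokine signalling that drives it, out of 20894 genes in the table. They were chosen by name: 20 acute phase proteins and proteins that recognise bacterial products or carry iron and copper, 7 genes of interleukin-6 (IL-6) family signalling, and 6 genes of interleukin-1 (IL-1) and NF-kappa-B signalling with the transcription factor gene Cebpd. All 33 have a row in the table. The filter on low counts kept 31 of them for testing, and Lcn2 and Osmr did not reach it.

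The acute phase response is the rapid change in plasma proteins that follows infection or injury. IL-6, and relatives such as oncostatin M and leukaemia inhibitory factor, bind receptors that share the subunit encoded by Il6st, which activates the kinase JAK1 and the transcription factor STAT3. IL-1 and bacterial lipopolysaccharide act through NF-kappa-B, and C/EBP factors join both arms at the promoters of genes such as serum amyloid A. In liver the products come mainly from hepatocytes, and Socs3, itself a STAT3 target, feeds back to block the receptor.

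Livers came from wild-type mice injected with AAV8, a virus vector that enters hepatocytes efficiently. In one group the vector encoded POLR2G, which is part of RNA polymerase II, and in the other it encoded green fluorescent protein (GFP) as the control. The TBG promoter, active mainly in hepatocytes, drove both. Livers were taken at the end of a fast held in the daytime, so the vector serotype, the promoter and the fast are common to both groups. The labels give no strain, sex or age, and no uninjected mice are among the samples. The comparison asks what extra POLR2G does to gene expression in the fasted liver. Each group has 4 libraries, the labels tie none of them to an animal, and p-values therefore measure the spread between these libraries. One POLR2G column carries a library number that the labels do not list and is called the unnumbered POLR2G library.

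Total estimated counts ranged from 14159056 to 22165491 per library. Polr2g checked the labels: it measured 13.7 ± 1.002 CPM (counts scaled to library size with TMM factors; SD, n = 4) with GFP and 2410 ± 153 CPM with POLR2G. GFP control replicate 3 was the highest library for 16.4% of all genes tested and for a larger share of the acute phase genes, as described below. It also had the lowest share of counts from the major urinary protein (Mup) genes, 6.89%, where the other controls had 9.59% to 16.1% and the POLR2G group 12.5% to 18.04%. All 12 hepatocyte markers on the list were detected, with a summed level of 126468 to 149216 CPM with GFP and 119875 to 133908 CPM with POLR2G. In such bulk samples fewer cells of a type and less RNA per cell cannot be told apart.

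The levels of several acute phase genes, Saa1 and Saa2 above all, varied more between libraries of the same group than between the groups. Over all genes tested, too, the median SD within groups (0.24, log2 scale) was above the median size of the log2 fold change (0.14). None of the 31 tested members passed edgeR's quasi-likelihood test at an adjusted p under 0.05 over all 10390 genes, where 4 genes, or 0.0385%, passed. At an unadjusted p under 0.05 edgeR gave 1 member, Socs3, with a higher mean, against 8.3% of all genes (4.2% higher and 4.1% lower), and DESeq2 called 1 member at its adjusted threshold, again Socs3, against 1.08% of the genes to which it gave an adjusted p. limma-voom called 0 members, with 2 at an unadjusted p under 0.05, and called 0.0289% of all genes. The mean was higher with POLR2G for 16 members and lower for 15, beside 49.3% of all genes higher. The median log2 fold change of the members was 0.016, beside −0.0031 over all genes tested.

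How far these data limit a change differed between members. For 24 of the 31 the 95% interval of the fold change lay within 2-fold in either direction, and for 18 within 1.5-fold. The 7 whose interval reached beyond 2-fold were Saa1, Saa2, Orm2, Orm3, Hamp, Nfkb1 and Socs3. Socs3 was the only one of the 31 whose interval did not include a fold of 1. For the other 6 a change of 2-fold was not detectable with this spread.

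**Figure D1:**
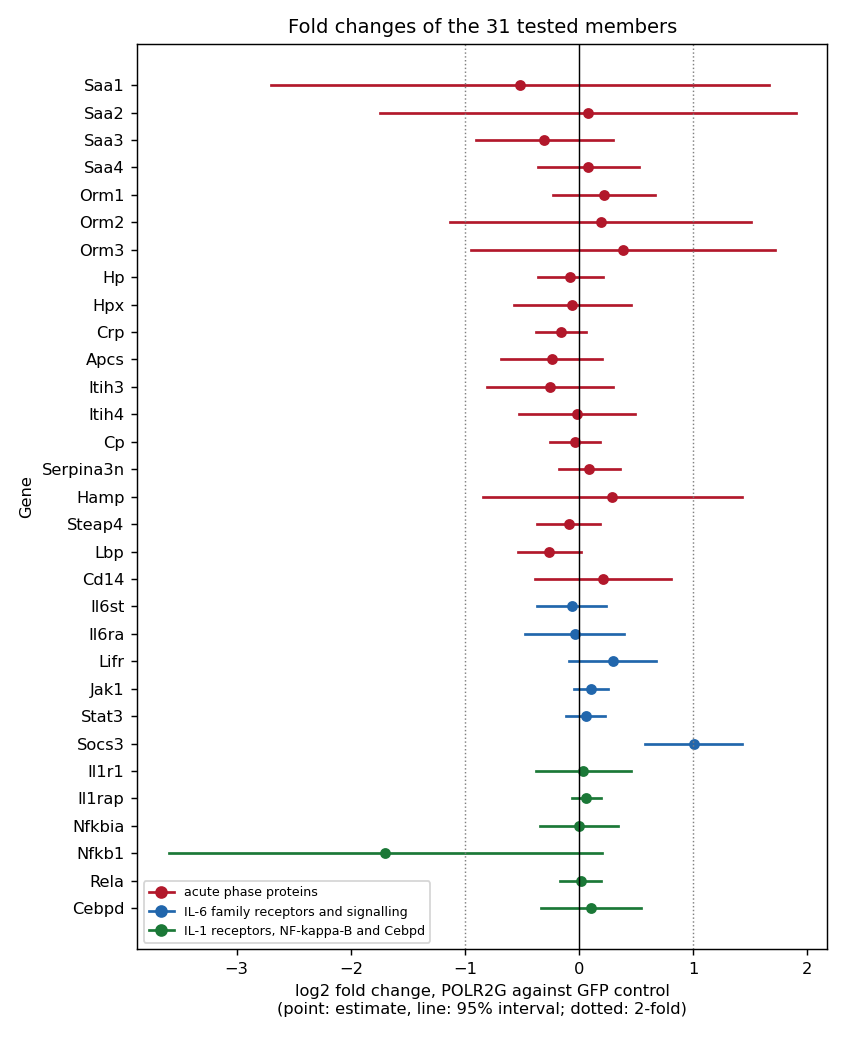
Log2 fold change of POLR2G against GFP control (horizontal axis) for the 31 tested members (vertical axis), with the 95% interval of the edgeR fit as a line and dotted lines at 2-fold. The interval of Socs3 lies to the right of 0, all others cross 0, and those of Saa1, Saa2 and Nfkb1 are the widest.

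Serum amyloid A is the classic major acute phase protein of the mouse, carried in plasma on high-density lipoprotein. Its genes Saa1 to Saa4 lie together on chromosome 7 within 42.3 kb (GRCm38, 46711998 to 46754313). Saa1 (ENSMUSG00000074115, minus strand) and Saa2 (ENSMUSG00000057465, plus strand) face away from each other, with annotated starts 8810 bases apart. Their upstream sequences are shown because the 2 genes had the widest ranges over the libraries among members with counts in all 8, and they are close to copies of one another: 238 of 251 aligned positions were identical, or 94.8%, over the 250 bases before each RefSeq start. Capitals mark matches to the C/EBP motif TTGCNNAA, and the Saa2 stretch ends at the GENCODE start of the gene.
Saa1, chr7:46742981-46743230, minus strand: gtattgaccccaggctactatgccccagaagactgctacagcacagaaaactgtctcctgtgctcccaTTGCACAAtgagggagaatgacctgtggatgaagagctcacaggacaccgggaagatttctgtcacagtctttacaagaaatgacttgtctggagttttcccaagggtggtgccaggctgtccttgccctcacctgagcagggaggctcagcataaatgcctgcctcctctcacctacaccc
Saa2, chr7:46751583-46751789, plus strand: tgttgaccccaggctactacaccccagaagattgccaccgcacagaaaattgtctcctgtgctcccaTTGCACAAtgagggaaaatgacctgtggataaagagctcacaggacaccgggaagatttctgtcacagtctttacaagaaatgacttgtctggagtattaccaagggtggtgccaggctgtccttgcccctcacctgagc

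Saa1 measured 181, 26.3, 406 and 30.8 CPM in GFP control replicates 1 to 4, and 311, 28.7, 66.6 and 42.2 CPM in POLR2G replicates 1, 3 and 4 and the unnumbered library. High and low libraries occurred in both groups, which overlapped fully, and the highest library was 15.4-fold above the lowest. The group difference was a log2 fold change of −0.52 (SE 0.97, edgeR adjusted p = 0.937), and its 95% interval ran from 0.154-fold to 3.18-fold. The log2 fold change of Saa1 turned positive, at 0.50, without GFP control replicate 3. It stayed negative with any other library left out, down to −1.81 without POLR2G replicate 1.

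Saa2 followed nearly the same order. It measured 36.6, 9.91, 75.1 and 16.1 CPM in GFP control replicates 1 to 4, and 100.2, 8.37, 17.9 and 17.5 CPM in POLR2G replicates 1, 3 and 4 and the unnumbered library. The highest value was in POLR2G replicate 1 here and in GFP control replicate 3 for Saa1. The log2 fold change was 0.078 (SE 0.81, edgeR adjusted p = 0.994). It ran from −1.23 without POLR2G replicate 1 to 0.79 without GFP control replicate 3 and was also negative without GFP control replicate 2 or 4. It turned negative with library totals only and in limma-voom, at −0.050 and −0.081.

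Of the 31-base words in the coding transcripts of Saa1, 26.8% also occur in Saa2, so estimated counts can be split between the copies. Saa1 took 65.7% to 84.4% of the sum over the 8 libraries. Summed, the pair measured 195 ± 208 CPM with GFP and 148 ± 177 CPM with POLR2G (SD, n = 4 per group, exact two-sided permutation p = 0.886). The SD exceeded the mean in both groups.

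The other amyloid genes did not have the range of this pair. Saa3, expressed in macrophages and other cells as well as in liver, measured only 2.65 to 6.51 CPM, with GFP control replicate 3 highest and POLR2G replicate 1 lowest (log2 fold change −0.30, SE 0.27, adjusted p = 0.825). Saa4, which is expressed without induction in liver, measured 312 ± 98.8 CPM with GFP and 331 ± 43.2 CPM with POLR2G, with its highest level in GFP control replicate 1. Its log2 fold change was 0.083 (SE 0.20, edgeR adjusted p = 0.950). Saa4 varied 1.99-fold over the 8 libraries.

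**Figure D2:**
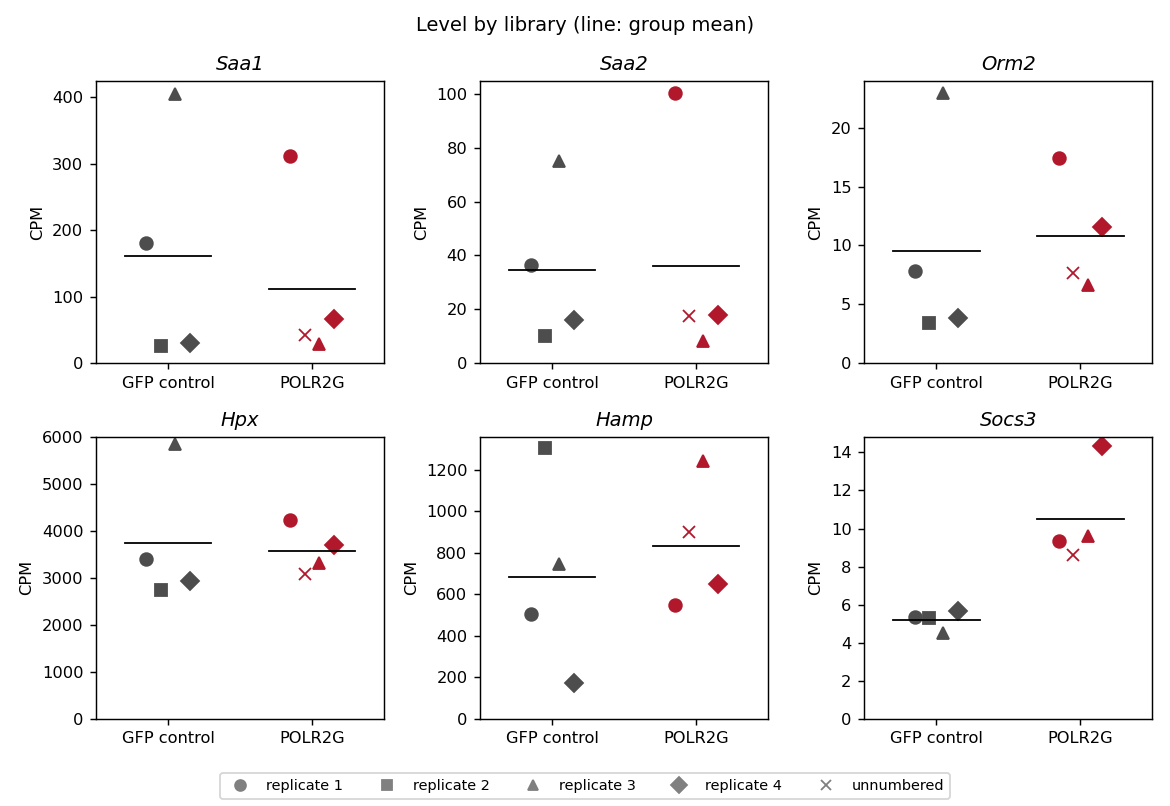
CPM of 6 members (vertical axes, from 0) in each GFP control and POLR2G library, with the group mean as a line; symbols give the replicate number and do not pair animals. Saa1, Saa2, Orm2 and Hpx were highest in GFP control replicate 3 and POLR2G replicate 1, Hamp had another order, and for Socs3 the groups were apart.

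Orosomucoid, or alpha-1-acid glycoprotein, is a plasma carrier of lipophilic compounds encoded by 3 neighbouring genes on chromosome 4 (63344560 to 63365878). Orm2 measured 7.85, 3.42, 23.0 and 3.84 CPM in GFP control replicates 1 to 4, and 17.4, 6.61, 11.6 and 7.66 CPM in POLR2G replicates 1, 3 and 4 and the unnumbered library. GFP control replicate 3 and POLR2G replicate 1 were again the highest, and the groups overlapped (log2 fold change 0.19, SE 0.59, edgeR adjusted p = 0.965). Without GFP control replicate 3 the log2 fold change was 1.10. Orm1, at 679 ± 194 and 791 ± 139 CPM, supplied 97.4% to 99.3% of the summed family in a library (log2 fold change 0.22, SE 0.20, adjusted p = 0.828). Orm3 had 7 to 37 counts in a library (log2 fold change 0.39, SE 0.59). Summed over the 3 genes, which share sequence, the levels were 689.5 ± 204 CPM with GFP and 804 ± 143 CPM with POLR2G (exact two-sided permutation p = 0.314).

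The 2 highest libraries of Orm2 were those of the Saa pair, as for Orm1, Hp, Hpx, Apcs, Itih4, Serpina3n and Nfkbia. The 250 bases before the RefSeq start of Orm2 are shown as the upstream sequence of such a gene. The capitals mark a match to the same C/EBP motif, 113 to 120 bases before the start.
Orm2, chr4:63362199-63362448, plus strand: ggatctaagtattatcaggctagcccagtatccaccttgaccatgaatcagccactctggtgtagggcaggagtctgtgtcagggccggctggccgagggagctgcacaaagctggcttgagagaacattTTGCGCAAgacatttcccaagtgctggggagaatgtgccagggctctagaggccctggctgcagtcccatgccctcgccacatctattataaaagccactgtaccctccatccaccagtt

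Across the list, one control library often carried the highest level. GFP control replicate 3 was the highest of the 8 libraries for 11 of the 19 tested acute phase genes (57.9%, beside 16.4% of all genes): Saa1, Saa3, Orm2, Orm3, Hp, Hpx, Crp, Apcs, Itih3, Cp and Lbp. POLR2G replicate 1 was highest for 4 (Saa2, Orm1, Itih4 and Serpina3n), and GFP control replicate 2 was lowest for 7. Of the 12 tested signalling genes, GFP control replicate 3 was highest for 2, Il6st and Cebpd. The acute phase members were not alone in this: the same library was highest for 9 of 23 further positive and 6 of 12 negative acute phase genes. It was also highest for 5 of 12 hepatocyte markers and 5 of 10 tested stellate cell markers. The hepatocyte markers share genes with the acute phase lists, such as Fgb and Apoa1, so these counts are not independent. The mean was lower with POLR2G for 11 of the 19 acute phase genes. Without GFP control replicate 3, 8 of all 31 members had a lower mean in place of 15, and the median log2 fold change of the members was 0.095 in place of 0.016. The part of the low Mup share of this library in these values was not tested.

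**Figure D3:**
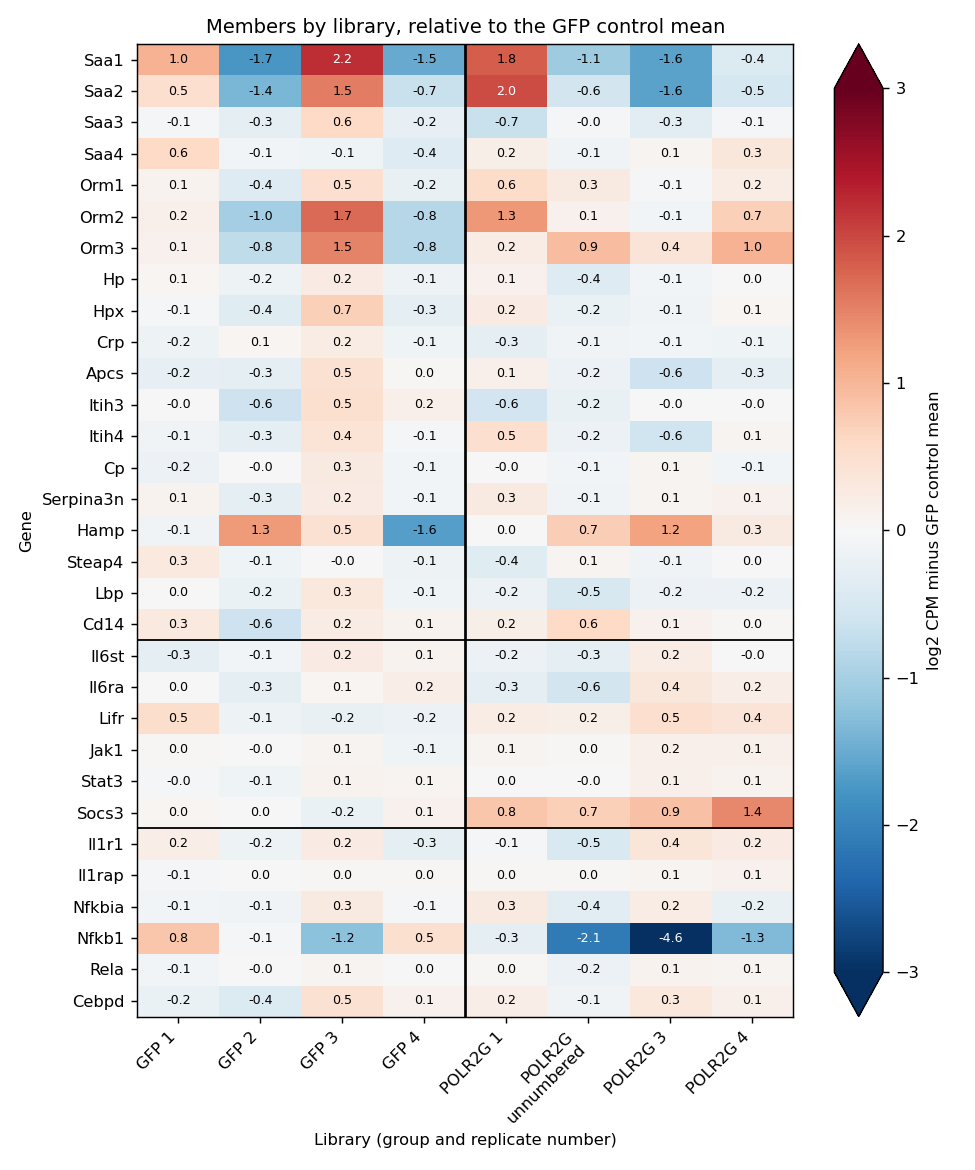
Log2 CPM minus the GFP control mean (colour and printed value) for the 31 tested members (rows, with lines between acute phase proteins, IL-6 family genes and IL-1 or NF-kappa-B genes) in the 8 libraries (columns). Saa1, Saa2, Orm2, Orm3 and Hpx are high in GFP control replicate 3, and of the rows only Socs3 separates the groups without overlap.

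Hemopexin and haptoglobin bind free haem and haemoglobin and so protect tissue and iron stores. Hpx measured 3399, 2752, 5859 and 2937 CPM in GFP control replicates 1 to 4. In POLR2G replicates 1, 3 and 4 and the unnumbered library it measured 4226, 3313, 3707 and 3092 CPM. GFP control replicate 3 thus lay above the remaining 7, which ranged from 2752 to 4226 CPM with POLR2G replicate 1 the next highest (log2 fold change −0.060, SE 0.23, edgeR adjusted p = 0.975). Without GFP control replicate 3 the log2 fold change was 0.24. Hp measured 2886 ± 384 and 2737 ± 393 CPM, and its 95% interval ran from 0.778-fold to 1.16-fold (edgeR adjusted p = 0.929).

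Hepcidin, encoded by Hamp (ENSMUSG00000050440, chromosome 7, 30942368 to 30944032, minus strand), is the hormone that lowers plasma iron by removing the exporter ferroportin, and both IL-6 and iron-sensing BMP signals induce it. Its upstream sequence is shown because it holds a match to the STAT motif TTCNNNGAA, in capitals, 89 to 97 bases before the RefSeq start, and because the gene did not keep the order of libraries of the Saa pair.
Hamp, chr7:30944033-30944279, minus strand: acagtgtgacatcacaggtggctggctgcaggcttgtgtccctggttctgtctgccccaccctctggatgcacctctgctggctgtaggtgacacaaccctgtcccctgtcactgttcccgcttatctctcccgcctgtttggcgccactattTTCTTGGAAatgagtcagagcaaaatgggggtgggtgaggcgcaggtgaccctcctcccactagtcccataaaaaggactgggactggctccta

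Hamp measured 506, 1304, 745 and 173 CPM in GFP control replicates 1 to 4. In POLR2G replicates 1, 3 and 4 and the unnumbered library it measured 546, 1241, 650.5 and 901 CPM. It was highest in GFP control replicate 2, the library lowest for Saa1 and Orm2, and lowest in GFP control replicate 4, a 7.54-fold range. The groups overlapped (log2 fold change 0.29, SE 0.50, 95% interval 0.557-fold to 2.69-fold, edgeR adjusted p = 0.933). Without GFP control replicate 2 the log2 fold change was 0.81, and without replicate 4 it was −0.029. Hamp shares 33.7% of its 31-base words with Hamp2, so a part of its estimated counts may belong to the copy.

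The other metal-handling members varied less. Cp, the copper-carrying ferroxidase ceruloplasmin, measured 318 ± 44.2 CPM with GFP and 311 ± 17.04 CPM with POLR2G, with an interval from 0.837-fold to 1.14-fold. Steap4, a metalloreductase, measured 144 ± 21.4 and 135 ± 17.2 CPM (0.775-fold to 1.14-fold). Neither passed the edgeR test, with adjusted p of 0.961 and 0.905. Lcn2, the siderophore-binding protein lipocalin 2 and one of the most inducible genes of the response, had few counts. It had 8 in GFP control replicate 3, 4 in the unnumbered POLR2G library, 1 in GFP control replicate 1 and 0 in the other 5. By depth alone 0 counts allow up to 0.145 to 0.176 CPM. This is no firm limit, as a 0 in this table need not mean that a transcript was absent. Lcn2 was not tested, and the library with most of its few counts is the one with the highest Saa1.

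The pentraxins are plasma pattern recognition proteins. Crp, which in the mouse is only weakly induced, measured 413 ± 51.4 CPM with GFP and 370 ± 24.1 CPM with POLR2G (log2 fold change −0.16, SE 0.096, edgeR adjusted p = 0.746). Apcs, serum amyloid P and the major pentraxin of the mouse response, measured 74.5 ± 18.8 and 63.06 ± 13.8 CPM (−0.24, SE 0.20, adjusted p = 0.815), with 100.8 CPM in GFP control replicate 3 and 47.4 CPM in POLR2G replicate 3 at its ends. Lbp presents lipopolysaccharide to the receptor Cd14. Lbp measured 54.2, 46.7, 66.6 and 49.2 CPM in GFP control replicates 1 to 4 and 47.5, 47.6, 47.2 and 38.2 CPM in POLR2G replicates 1, 3 and 4 and the unnumbered library. Its log2 fold change was −0.26 (SE 0.12, edgeR adjusted p = 0.621), −0.15 without GFP control replicate 3, and the groups overlapped. Cd14, mainly a myeloid gene, had 31 to 72 counts in a library (0.22, SE 0.27, adjusted p = 0.891).

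Protease inhibitors complete the acute phase set. Serpina3n, an inhibitor related to antichymotrypsin, measured 473 ± 70.2 CPM with GFP and 503 ± 53.3 CPM with POLR2G, with an interval from 0.885-fold to 1.28-fold (edgeR adjusted p = 0.902). Itih4, an inter-alpha-trypsin inhibitor heavy chain, measured 77.1 ± 16.6 and 76.3 ± 24.4 CPM (0.697-fold to 1.41-fold). Itih3, a second heavy chain, measured 6.87 ± 2.045 and 5.78 ± 1.02 CPM (0.574-fold to 1.23-fold). Serpina3n shares 21.6% of its 31-base words with related genes, so its split among copies is uncertain.

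In IL-6 family signalling the feedback inhibitor gene Socs3 was the 1 gene of 6 tested whose groups were apart. Over all genes tested 5.51% had groups apart, 2.83% with POLR2G higher. Il6st, the shared signalling subunit, measured 185 ± 28.2 CPM with GFP and 177 ± 27.1 CPM with POLR2G, with an interval from 0.775-fold to 1.18-fold. Il6ra, the ligand-binding subunit, measured 178 ± 24.0 and 174 ± 49.1 CPM (0.723-fold to 1.31-fold). Lifr, the receptor of leukaemia inhibitory factor, measured 467, 292, 276 and 287 CPM in GFP control replicates 1 to 4 and 374, 459, 425 and 366 CPM in POLR2G replicates 1, 3 and 4 and the unnumbered library. For Lifr, 3 of the GFP control libraries lay below every POLR2G library and replicate 1 above them all (log2 fold change 0.30, SE 0.17, edgeR adjusted p = 0.716). Without GFP control replicate 1 it was 0.51 (adjusted p = 0.162).

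Jak1, the kinase, measured 138 ± 8.71 CPM with GFP and 148 ± 6.06 CPM with POLR2G (0.968-fold to 1.196-fold, edgeR adjusted p = 0.752). Stat3, the transcription factor, measured 108 ± 8.28 and 113 ± 6.43 CPM (0.926-fold to 1.17-fold, adjusted p = 0.896). Jak1 and Stat3 had some of the smallest spreads among the members, with within-group SDs of 0.078 and 0.098 on the log2 scale. Osmr, the oncostatin M receptor, is listed at 0 in all 8 libraries. Smad4 and Map3k7, genes that nearly every cell uses, are also listed at 0 in all 8, so a 0 in this table need not mean that a transcript was absent, and no limit on the level of Osmr is given.

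Socs3 (ENSMUSG00000053113, chromosome 11, 117966079 to 117970047, minus strand) encodes the inhibitor that binds the IL-6 receptor complex and JAK kinases. The 30 bases shown hold the match to the STAT motif, in capitals, 146 to 154 bases before its RefSeq start and inside the span that GENCODE gives to the gene.
Socs3, chr11:117969501-117969530, minus strand: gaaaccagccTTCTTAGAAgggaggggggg

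Socs3 measured 5.37, 5.28, 4.51 and 5.69 CPM in GFP control replicates 1 to 4. In POLR2G replicates 1, 3 and 4 and the unnumbered library it measured 9.35, 9.59, 14.3 and 8.62 CPM. All 4 POLR2G libraries lay above all 4 GFP control libraries, with POLR2G replicate 4 highest. The mean was 2.01-fold higher, at 5.21 ± 0.498 CPM with GFP and 10.5 ± 2.61 CPM with POLR2G (log2 fold change 1.01, SE 0.19, 95% interval 1.497-fold to 2.70-fold).

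The edgeR p of Socs3 was 4.12e-04 and its adjusted p over all genes 0.164, so it did not pass, while DESeq2 gave an adjusted p of 0.00149 and limma-voom 0.198. By exact permutation (two-sided, on log2 CPM) p was 0.0286, which is the lower limit for groups of 4. Socs3 was the 1 member of 31 whose groups did not overlap, as was true of 5.51% of all genes tested, 2.83% with POLR2G higher and 2.68% with POLR2G lower. With 1 library left out in turn its log2 fold change stayed between 0.82 (without POLR2G replicate 4) and 1.09, and the edgeR adjusted p between 0.202 and 0.415. Socs3 has 1 annotated coding transcript and shares none of its 31-base words with other genes.

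Socs3 is also an immediate early gene. Of 4 other genes of that kind, Dusp1, Myc, Fos and Junb, the groups were apart for Dusp1 and overlapped for the rest. Dusp1, a MAP kinase phosphatase, measured 24.1, 20.6, 17.7 and 17.6 CPM in GFP control replicates 1 to 4, against 46.0, 50.6, 79.9 and 41.05 CPM in POLR2G replicates 1, 3 and 4 and the unnumbered library. Its highest library, POLR2G replicate 4, was that of Socs3 (log2 fold change 1.44, SE 0.21, edgeR adjusted p = 0.0826). Myc (log2 fold change 1.59, SE 0.43, edgeR adjusted p = 0.350) and Junb (0.99, SE 0.35, adjusted p = 0.485) did not pass either. Nor did Fos, on 3 to 92 counts (1.67, SE 0.85, adjusted p = 0.659). All of them had a higher mean with POLR2G, and POLR2G replicate 4 was the highest library for each. These genes were chosen after their values were seen, and the part of their levels in that of Socs3 was not tested. The order of the libraries for Socs3 was not that of Saa1: GFP control replicate 3, highest for Saa1, was the lowest for Socs3.

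In the IL-1 and NF-kappa-B arm none of the 6 members passed the test. Il1r1, the IL-1 receptor, measured 62.9 ± 11.4 CPM with GFP and 64.6 ± 15.4 CPM with POLR2G, with an interval from 0.770-fold to 1.37-fold. Il1rap, its accessory chain, measured 159, 168, 169 and 169 CPM in GFP control replicates 1 to 4 and 169, 175, 181 and 172 CPM in POLR2G replicates 1, 3 and 4 and the unnumbered library. It was the steadiest of the members, with a within-group SD of 0.041 on the log2 scale, and its difference was small (log2 fold change 0.066, SE 0.057, edgeR adjusted p = 0.824).

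Rela, the transactivating subunit of NF-kappa-B, measured 35.1 ± 1.48 and 35.4 ± 3.05 CPM (0.893-fold to 1.14-fold), and Nfkbia, the inhibitor that NF-kappa-B itself induces, 43.5 ± 5.56 and 43.3 ± 9.18 CPM (0.787-fold to 1.27-fold). Cebpd, a C/EBP factor that IL-6 and IL-1 induce, measured 10.1 ± 2.72 and 10.9 ± 1.35 CPM (0.797-fold to 1.46-fold). None of Rela, Nfkbia and Cebpd passed the edgeR test, with adjusted p of 0.983, 0.999 and 0.933.

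Nfkb1, which encodes the p105 precursor of an NF-kappa-B subunit, had the largest difference in size among the members on low counts. It had 87, 45, 17 and 71 counts in GFP control replicates 1 to 4, and 46, 0, 18 and 9 in POLR2G replicates 1, 3 and 4 and the unnumbered library. The groups overlapped in GFP control replicate 3 and POLR2G replicate 1 (log2 fold change −1.70, SE 0.85, 95% interval 0.0826-fold to 1.15-fold, edgeR adjusted p = 0.650). Without POLR2G replicate 1 the log2 fold change was −2.56. GENCODE gives 3 coding transcripts for Nfkb1, and whether its few counts cover all of them was not tested.

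Differences between groups were set beside the spread within groups. Saa1, Saa2, Orm2, Hamp and Orm3 had within-group SDs of 1.73, 1.40, 0.98, 0.95 and 0.82 on the log2 scale, larger than their group differences. The SD of Saa1 was at least that of 98.2% of the genes tested with a mean of 1 CPM or more, that of Saa2 of 97.3% and that of Hamp of 95.2%. Il1rap (0.343%), Jak1 (5.57%), Stat3 (11.3%) and Rela (12.2%) were at the other end of that ranking. Socs3 had a middling SD of 0.25 (55.2%) and a log2 fold change of 1.01. Nfkb1, on few counts, combined an SD of 1.46 (97.5%) with the larger difference of −1.70. The median SD was 0.34 for the acute phase genes, 0.24 for the IL-6 family genes and 0.27 for the IL-1 and NF-kappa-B genes, beside 0.24 over all genes tested. An SD above the group difference is common: over all genes tested the median size of the log2 fold change was 0.14.

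**Figure D4:**
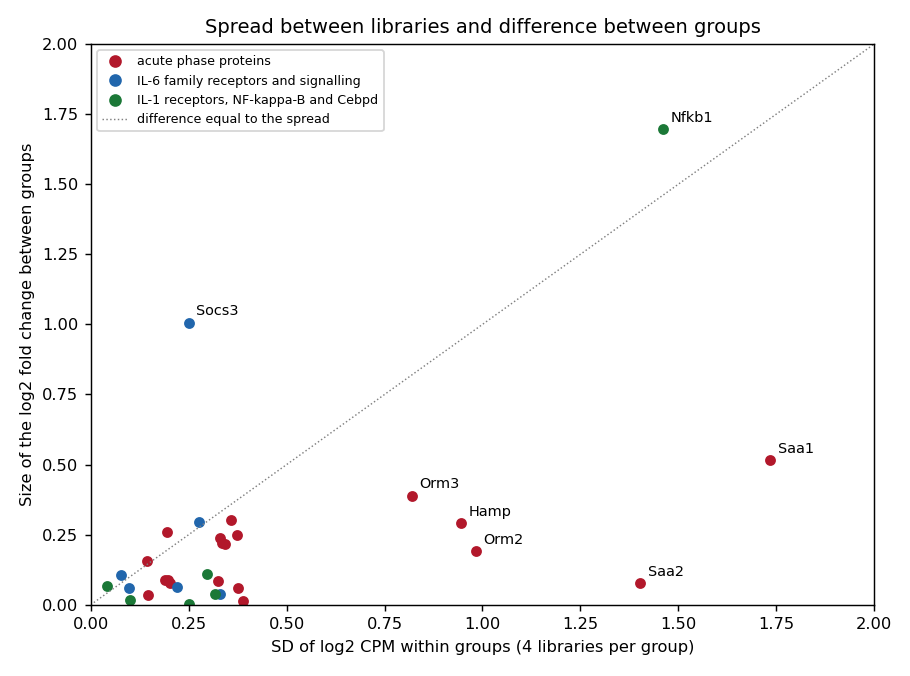
Size of the log2 fold change between groups (vertical axis) against the SD of log2 CPM within groups (horizontal axis) for the 31 tested members, with a dotted line where they are equal. Socs3 lies far above the line with an SD of 0.25, while Saa1, Saa2, Orm2, Orm3 and Hamp lie below it.

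Levels can be compared between genes only per length, which was done for the 15 members with 1 annotated coding transcript. Hpx, with 2 coding transcripts and 3737 ± 1441 CPM with GFP, was not among them. On the scale of CPM per kb of transcript, the highest of the 15 with GFP were Hp (2145 ± 286) and Hamp (1663 ± 1162), whose libraries overlapped. Orm1 (876 ± 251) followed. Saa1 (264 ± 293), Crp (244 ± 30.4) and Serpina3n (229 ± 34.0) came next and did not differ beyond their spread. The lowest were Socs3 (2.04 ± 0.195), Cd14 (1.77 ± 0.465) and Orm3 (1.30 ± 1.22). Over the 8 libraries the level of Saa1 ran from 43.1 to 666 CPM per kb, from below that of every Crp library to above it.

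Promoter windows were available for 27 of the 33 members, as the 250 bases before RefSeq starts on GRCm38.p6. The C/EBP motif TTGCNNAA occurred, on either strand, in 11 of them (40.7%), beside 10.8% of all 27025 genes in the table. These were Saa1 to Saa4, Lcn2, Orm2, Orm3, Hpx, Cp, Steap4 and Il1r1. The STAT motif TTCNNNGAA, which reads the same on both strands, occurred in 5 (18.5%, beside 8.13%): Apcs, Itih4, Hamp, Steap4 and Socs3. The NF-kappa-B motif, searched on both strands, occurred in 3 (11.1%, beside 1.65%): Serpina3n, Steap4 and Nfkbia. Socs3, the 1 member whose groups were apart, shares its STAT match with 4 genes whose groups overlapped. The groups were apart for only 5.51% of all genes tested, and the part of these motifs in the levels was not tested.

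Other genes of the same pathways gave 0 calls over all genes in edgeR and limma-voom. DESeq2 called 3 of them, Serpina6, Serpina1e and Il11ra1, beside 1.08% of the genes to which it gave an adjusted p. Of 23 tested further positive acute phase genes 14 had a higher mean (median log2 fold change 0.028), and 4, or 17.4%, had an unadjusted p under 0.05, all with a higher mean, beside 8.3% of all genes and 4.2% in that direction. Fga, a fibrinogen chain, measured 108 to 158 CPM with GFP and 162 to 217 CPM with POLR2G, groups that did not overlap (log2 fold change 0.45, SE 0.14, edgeR adjusted p = 0.409). Cxcl1, a neutrophil-attracting chemokine, measured 2.26 to 2.65 and 2.84 to 8.31 CPM, again apart (1.02, SE 0.32, adjusted p = 0.435), with POLR2G replicate 4 highest as for Socs3. They were the only 2 of the 23 whose groups were apart, beside 5.51% of all genes. Both were named because their p was the smallest on the list.

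Of 12 negative acute phase genes, 6 had a lower mean (median −0.012). An edgeR unadjusted p under 0.05 was found for 3 (25%, beside 8.3% of all genes), 2 of them lower. The groups were apart for the same 3, Ttr, Serpina6 and Serpina1e, beside 5.51% of all genes tested. Serpina6, which encodes corticosteroid-binding globulin, measured 251 to 286 CPM with GFP and 170 to 240 CPM with POLR2G (−0.42, SE 0.11, edgeR adjusted p = 0.350, DESeq2 adjusted p = 0.0427). Serpina1e, one of several near-identical antitrypsin copies between which reads can be split, is on the list but is not a typical negative acute phase gene. It measured 8867 to 12899 and 14248 to 19182 CPM (0.68, SE 0.13, edgeR adjusted p = 0.166, DESeq2 adjusted p = 1.88e-04).

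Among 22 tested further IL-6 family and JAK-STAT genes 10 had a higher mean (median −0.015). An edgeR unadjusted p under 0.05 was found for 4 (18.2%, beside 8.3% of all genes), 2 in each direction. The 2 higher were Cish (log2 fold change 1.09, SE 0.36) and Junb (0.99, SE 0.35), and the groups overlapped for both. The groups were apart for 2 of the 22, Il11ra1 and Ptpn1, beside 5.51% of all genes tested. Il11ra1, the interleukin-11 receptor, measured 7.80 to 9.79 CPM with GFP and 2.93 to 5.69 CPM with POLR2G, with the groups apart (log2 fold change −0.85, SE 0.21, edgeR adjusted p = 0.304, DESeq2 adjusted p = 0.0360). Ptpn1, a phosphatase that acts on JAK kinases, measured 25.7 to 30.3 and 20.6 to 25.3 CPM (−0.29, SE 0.092, edgeR adjusted p = 0.437). Il6, Osm and Lif, the ligand genes, did not pass the low-count filter.

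Of 24 tested further IL-1, Toll-like receptor and NF-kappa-B genes 18 had a lower mean (median −0.12). An edgeR unadjusted p under 0.05 was found for 2 (8.33%, beside 8.3% of all genes), 1 in each direction. The groups were apart for the same 2, Irak2 and Nfkb2, beside 5.51% of all genes tested. Irak2, a kinase below the IL-1 receptor, measured 2.98 to 9.89 CPM with GFP and 0 to 2.31 CPM with POLR2G (log2 fold change −2.72, SE 1.01, edgeR adjusted p = 0.5002). Its within-group SD was 1.71 on the log2 scale. It had 0 counts in POLR2G replicate 3 and in the unnumbered library, and a 0 in this table need not mean that a transcript was absent. Nfkb2, the p100 precursor, measured 1.80 to 5.45 and 6.61 to 7.54 CPM (0.70, SE 0.30, adjusted p = 0.583). Of 14 tested liver transcription factors and hepcidin regulators 10 had a higher mean (median 0.108). An edgeR unadjusted p under 0.05 was found for 3 (21.4%, beside 8.3% of all genes), 2 of them higher. The groups were apart for 1 of the 14, Cebpg, beside 5.51% of all genes tested. Cebpa, the constitutive C/EBP factor of liver, measured 37.5 to 65.0 CPM with GFP and 54.9 to 99.9 CPM with POLR2G (0.71, SE 0.21, adjusted p = 0.388), and Cebpg 82.4 to 98.2 and 68.6 to 81.6 CPM (−0.24, SE 0.083, adjusted p = 0.473).

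**Figure D5:**
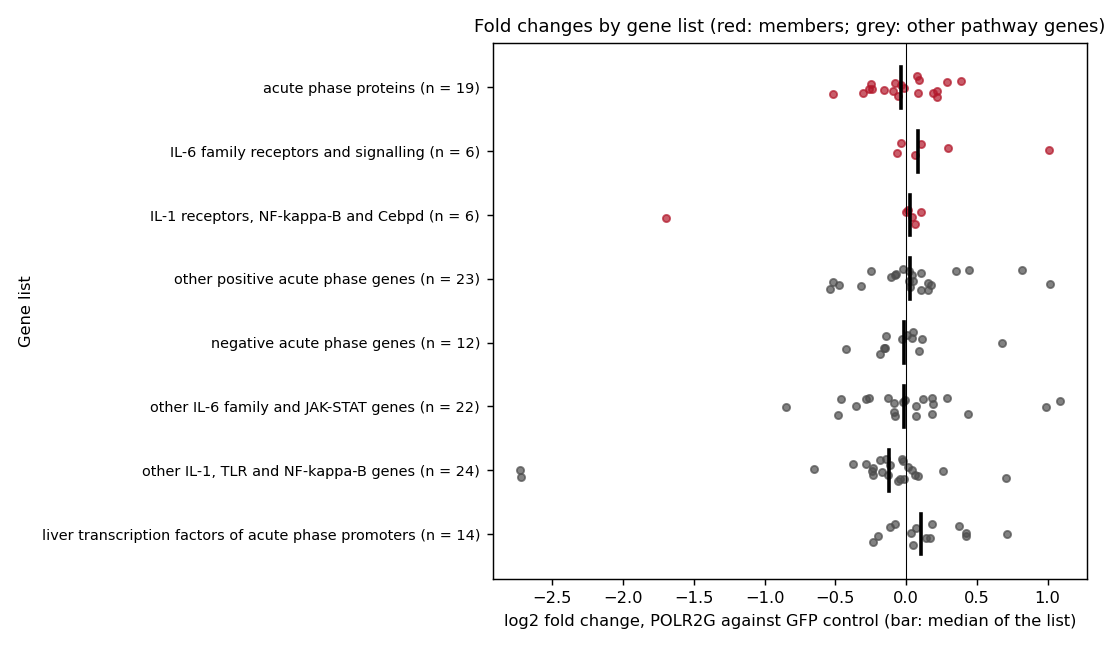
Log2 fold change of POLR2G against GFP control (horizontal axis) for each tested gene of the 3 member lists (red) and the 5 other pathway lists (grey), with the list median as a bar. Every list median lies between −0.12 and 0.11, and the genes of each list fall on both sides of 0.

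The summed markers of other cell types overlapped between the groups. The summed level of 12 Kupffer cell and macrophage markers was 272 to 409 CPM with GFP and 294 to 558 CPM with POLR2G, and 10 of the 11 tested had a higher mean there. All 10 were highest in the unnumbered POLR2G library, which held the sum of 558 CPM, while the other 3 POLR2G libraries had sums of 294 to 362 CPM, within the range with GFP. Marco reached 60.5 CPM in that library, against at most 10.5 CPM with GFP. Neutrophil markers summed to 5.80 to 9.15 and 6.08 to 6.55 CPM, with 9 of 12 under 10 counts in every library and Ly6g and Ngp at 0. B and T lymphocyte markers summed to 3.39 to 6.17 and 5.69 to 7.48 CPM, liver endothelial markers to 175 to 257 and 209 to 247 CPM, stellate cell and fibroblast markers to 130.2 to 251 and 158 to 232 CPM, and cholangiocyte markers to 6.98 to 13.7 and 10.4 to 13.7 CPM. The exact two-sided permutation p of these sums ran from 0.114 for lymphocyte markers to 0.886 for endothelial markers, and 0 of the listed markers passed the edgeR test. The markers at an unadjusted p under 0.05 were Ttr, Lyve1 and Krt23. The part of these cells in the levels of Saa3 and Cd14, which myeloid cells also express, was not tested.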

How the data were processed

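Per the labels' protocols, poly-A RNA of snap-frozen mouse liver was sequenced from strand-specific libraries. The authors deposited 1 table of estimated counts as whole numbers, not normalized. Salmon 1.2.1 and the builds GRCm38 and mm10 are named, without a role, per the submitters' processing notes. Not given in the sources used here are the annotation release and how transcripts were combined. Symbols were found for 20817 of 20894 identifiers, and coordinates are GENCODE M21 on GRCm38. Columns were matched to samples by library name, except the unnumbered POLR2G library, matched to its group only.

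The whole table was fitted with edgeR 4.0.16 in R 4.3.3 (TMM, filterByExpr with a minimum count of 10 and total of 15, group as the only term, Benjamini-Hochberg adjustment over 10390 genes, threshold 0.05). Exact permutation tests used all 70 arrangements of log2 CPM with a prior count of 2. The steps were tested on data simulated with the same dispersion for every gene. That does not cover genes as variable as Saa1, and the recovery of small changes is not reported here. Alternatives were other scalings and filters, DESeq2 1.42.0, limma-voom (limma 3.58.1), a replicate block, each library left out and, added after seeing the data, genes with 1 coding transcript. Libraries of a group differed by a chi-square per degree of freedom of 12.9 to 127, so none was a duplicate. Members and lists were chosen with earlier results of these data known. Named genes are all members and, from each further list, genes past the threshold and the 2 with the smallest p. Some others, among them Dusp1, Myc, Fos, Junb and Cish, are named besides. Upstream sequences are from RefSeq.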

Additional observations from a re-analysis of the deposited data

Results flagged for a closer look

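In 82 groups of 4 libraries checked, 5 had 1 library far from the other 3 by Dixon's criterion, and chance alone sets about 1 in 20 such groups apart. For Lbp the unnumbered POLR2G library measured 38.2 CPM, below the 47.2 to 47.6 CPM of the other POLR2G libraries. GFP control replicate 1 measured 467 CPM for Lifr, above 276 to 292 CPM in the other GFP control libraries. The same library measured 159 CPM for Il1rap, below 168 to 169 CPM. GFP control replicate 3 measured 51.7 CPM for Nfkbia, above 39.9 to 41.5 CPM, and 1.8 CPM for Nfkb2, below 4.63 to 5.45 CPM.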

How the results depend on the processing

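Over all genes the count past the threshold was 4 in edgeR, 124 in DESeq2, 1 with library totals only and 1 to 6 with 1 library left out. DESeq2 called 1 member and 3 further pathway genes, where edgeR called 0. Of all genes to which DESeq2 gave an adjusted p it called 1.08%. Socs3 kept its direction in every setting run, with a log2 fold change of 0.93 to 1.07 and an adjusted p of 0.00149 to 0.454 over the settings that leave out no single library, and of 0.82 to 1.09 and 0.202 to 0.415 with 1 library left out. Among genes with 1 coding transcript, 9 members had a higher and 6 a lower mean, and with 1 library left out 8 to 19 members had a lower mean. The groups did not overlap for 1 member in the main fit, beside 5.51% of all genes tested. The count was 2 members with library totals only and 1 to 3 with 1 library left out. A smaller group separates more easily by chance, and the shares of all genes in these settings are not reported here. The log2 difference of the Saa1 and Saa2 sum ran from −1.01 to 0.38 with 1 library left out. Library totals only moved the median of all genes to −0.079, and turned Saa2 to −0.050, Stat3 to −0.018, Il1r1 to −0.039, Il1rap to −0.012 and Rela to −0.065. Saa2 was −0.081 in limma-voom, and upper quartile scaling gave Itih4 0.0096 and Nfkbia 0.019. The replicate numbers are not stated to pair the libraries. Correlations of deviations were 0.068, −0.017 and 0.023 for same-numbered libraries and −0.081 to 0.057 for the others. With so few libraries these values cannot exclude a pairing. A replicate block over the 6 libraries with a shared number gave 2 genes and 0 members past the threshold, and turned Saa2 to −0.36, Cd14 to −0.096 and Nfkbia to 0.052. The causes of these shifts were not tested. With 1 library left out the log2 fold change ran from −1.81 to 0.50 for Saa1, −1.23 to 0.79 for Saa2, −0.039 to 0.32 for Saa4, −0.14 to 1.10 for Orm2, −0.15 to 0.015 for Hp, −0.18 to 0.24 for Hpx, −0.23 to 0.14 for Itih4, −0.088 to 0.063 for Cp, −0.029 to 0.81 for Hamp, −0.15 to 0.018 for Steap4, −0.17 to 0.021 for Il6st, −0.19 to 0.10 for Il6ra, −0.081 to 0.18 for Il1r1, −0.11 to 0.099 for Nfkbia, −0.018 to 0.073 for Rela and −0.015 to 0.28 for Cebpd. Lcn2, Orm3 and Nfkb1 had few counts and Osmr is listed at 0, and the part of depth in this was not tested.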
